A study of Mus musculus with 6 samples.

Results

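Collagen genes were examined in endothelial cells of the embryonic mouse brain, as the 43 gene entries whose symbol consists of Col, a type number, the letter a and a chain number, out of 22958 entries measured by RNA sequencing. By the type they encode, 8 belonged to basement membrane collagens (types IV, XV and XVIII), 11 to fibrillar collagens and 24 to other collagens. Cells positive for CD31 (PECAM1) were sorted from C57BL/6 x 129/Sv embryos at E11.5, after the mothers had received tamoxifen at E9.5. The 3 control libraries carried the genotype label Cdhrs5CreERT2:R26Axin1IL-/- with wildtype Axin1 expression, and the 3 Axin1 libraries the label Cdhrs5CreERT2:R26Axin1IL+/- with Axin1 overexpression. The tamoxifen-inducible Cre is thus named for both groups, both received tamoxifen, and the labels do not state litters, pooling or sex. Axin1 holds together the proteins that send beta-catenin to degradation, and the study compared expression with and without its overexpression.

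Collagens are secreted as trimers of chains that carry long Gly-X-Y repeats. Type IV chains assemble into the sheet-like network of basement membranes, which endothelial cells and pericytes of brain vessels share, and types XV and XVIII are basement membrane proteoglycans whose C-terminal fragments are known as restin and endostatin. Fibrillar types I, II, III, V, XI, XXIV and XXVII form or regulate fibrils and are made mainly by fibroblasts, cartilage and other mesenchymal cells. The remaining types include those that decorate fibrils, beaded filaments of type VI, short-chain networks and transmembrane collagens.

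Libraries held 10772492 to 14234409 reads assigned to genes. Axin1 itself lay between 17.6 and 25 CPM (read counts scaled to library size with TMM factors) in the controls and between 62.2 and 79.8 CPM in the Axin1 libraries (log2 fold change 1.72, edgeR adjusted p 0.0103). By edgeR 0 of 12 endothelial markers had an adjusted p under 0.05 (0.845% of all tested genes), 3 had an unadjusted p under 0.05 (17.2%) and DESeq2 called 1 (5.69%), and their summed level was 7496 to 7943 CPM in the controls and 7855 to 8745 CPM in the Axin1 libraries. Summed neural markers ranged from 290 to 474 CPM, erythroid markers from 240 to 3030 CPM and platelet markers from 469 to 2101 CPM, with groups that overlapped. Nes alone held 155 to 235 CPM of the neural sum. Some neural markers varied more, such as Tubb3 with 14.4, 34.6 and 106 CPM in controls 1, 2 and 3 and 21.5, 50.5 and 55 CPM in Axin1 libraries 1, 2 and 3. Stmn2 was ordered otherwise, with 111, 124 and 84.7 CPM in the controls. Tubb3 and Stmn2 were chosen after their values were seen. The 4 collagen genes named as markers of these cells, Col4a1, Col4a2, Col18a1 and Col15a1, each had at least 18 RPKM in all 6 libraries.

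Col4a1 and Col4a2, the chains of the main type IV trimer, are neighbours on opposite strands. Their promoters are shown because these genes start within 21 bases of each other, and because their levels are set side by side in the results. The sequences are those of RefSeq, build GRCm38.p6, from 250 bases before to 50 bases after each gene's start. The Col4a1 window is chr8:11312777-11313076 on the minus strand and the Col4a2 window chr8:11312555-11312854 on the plus strand. Capitals mark the 78 bases that both windows cover, read from opposite strands.
Col4a1: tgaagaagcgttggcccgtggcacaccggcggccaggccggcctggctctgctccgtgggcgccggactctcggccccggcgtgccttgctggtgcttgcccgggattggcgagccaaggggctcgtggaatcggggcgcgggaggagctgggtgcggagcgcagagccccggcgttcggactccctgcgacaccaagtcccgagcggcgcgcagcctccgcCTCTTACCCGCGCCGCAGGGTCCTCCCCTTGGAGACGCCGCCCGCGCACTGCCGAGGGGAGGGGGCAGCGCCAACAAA
Col4a2: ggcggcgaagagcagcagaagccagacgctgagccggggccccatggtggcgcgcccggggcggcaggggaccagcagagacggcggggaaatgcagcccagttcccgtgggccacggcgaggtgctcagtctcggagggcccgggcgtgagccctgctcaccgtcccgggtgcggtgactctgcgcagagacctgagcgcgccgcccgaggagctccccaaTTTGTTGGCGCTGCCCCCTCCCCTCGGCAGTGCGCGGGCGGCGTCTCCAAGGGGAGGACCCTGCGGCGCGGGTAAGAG

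The Col15a1 window, chr4:47207762-47208061 on the plus strand, is shown for contrast, since Col15a1 had the smallest p among collagen genes. Capitals mark its match to CTTTGA on the other strand.
Col15a1: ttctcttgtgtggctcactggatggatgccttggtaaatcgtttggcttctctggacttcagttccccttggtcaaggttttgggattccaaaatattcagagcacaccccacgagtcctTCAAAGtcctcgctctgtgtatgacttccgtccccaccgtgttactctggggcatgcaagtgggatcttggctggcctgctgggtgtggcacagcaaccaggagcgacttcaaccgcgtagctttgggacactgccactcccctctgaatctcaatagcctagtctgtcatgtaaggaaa

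The Col4a1 and Col4a2 windows held 74% and 73.7% G or C, against 52.3% for Col15a1 and a median of 52.7% over all 32851 windows. The GC box GGGCGG, searched on both strands, occurred 1 time for Col4a1, 3 times for Col4a2 and 0 times for Col15a1, and 35.7% of all windows held at least 1. The letters CCAAT occurred 1 time each for Col4a1 and Col4a2 and 0 times for Col15a1 (37.4% of all windows). CTTTGA, the core of the TCF/LEF site through which beta-catenin acts, occurred 1 time for Col15a1 and 0 times in the other 2 windows (16% of all windows). The letters TATAAA were in none of the 3 (13.6% of all windows). Of the 43 collagen genes, 35 had a window in the table, and 9 of their 38 windows held CTTTGA. A link between these letters and the level of Col15a1 or any other collagen gene was not tested.

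A small number of collagen genes held nearly all collagen signal. Levels between genes are compared in the authors' RPKM, which are reads per kilobase of gene length, scaled to library size. Col4a1, Col18a1, Col4a2, Col5a2 and Col15a1 together made up 93.8% to 97.6% of the summed collagen RPKM of a library. The highest mean among the other collagen genes was 5.27 RPKM, for Col23a1. Summed over all 43 genes, collagen stood at 440 ± 19.6 RPKM in the controls and 448 ± 6.17 RPKM in the Axin1 libraries (SD, n = 3 each).

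Basement membrane genes contributed 90.8%, 91.6% and 87.8% of that sum in controls 1, 2 and 3, and 88.6%, 87.6% and 89.8% in Axin1 libraries 1, 2 and 3. Fibrillar genes contributed 6.65% to 11% and the other genes 1.08% to 1.95%. The ranges of both groups overlapped for each class. In reads, all collagen genes together took 0.255% to 0.276% of a library.

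With all 6 libraries, no collagen gene passed the quasi-likelihood test of edgeR after Benjamini-Hochberg adjustment over all tested genes. Of 43 genes, 16 had enough reads to be tested (5 basement membrane, 8 fibrillar and 3 other), and 0 of these 16 had an adjusted p under 0.05, where 0.845% of all 12661 tested genes did (0.355% higher and 0.49% lower in the Axin1 libraries). At an unadjusted p under 0.05 there were 2 of 16, Col15a1 and Col12a1, against 17.2% of all tested genes. DESeq2 called 1 of 16, Col15a1 (5.69% of all tested genes), and gave no adjusted p for 4 of them. Limma on log2(RPKM + 1) called 0 of the 9 collagen genes with a mean of at least 1 RPKM, against 0.894% of all genes tested that way. Groups did not overlap for 3 of the 16, which were Col15a1 (Axin1 libraries all higher) and Col4a2 and Col12a1 (all lower), where 23.8% of all tested genes had groups that did not overlap (11.3% higher and 12.4% lower). The median log2 fold change over the 16 was 0.12, beside 0.02 over all tested genes, and 10 of the 16 values were positive. A gene that is low in 1 group could pass the filter on low counts through the other, as Col12a1 did through the controls. The 16 are therefore not a sample of all 43. The labels number the libraries of a group as biological repeats without naming animals or litters, so each p measures the spread between these libraries only.

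Calls among the collagen genes depended on the setting and numbered between 0 and 5. The highest count came from the 4 libraries whose title numbers occur in both groups (controls 1 and 2 and Axin1 libraries 1 and 2), fitted with that number as a block. There 5 of 16 passed, Col15a1, Col1a1, Col1a2 and Col3a1 higher and Col12a1 lower in the Axin1 libraries, beside 11.9% of all genes tested. The labels do not say what the title number stands for. This fit leaves out control 3 and Axin1 library 3, and its 4 libraries leave little spread to measure. There were 0 calls with the description number as a block over all 6 libraries (0.829%), 0 with RLE size factors (0.814% of all genes tested), 0 with a filter of 1 CPM in 3 libraries (0.921%), 0 of 9 by limma on log2(RPKM + 0.1) (0.699%) and 1, Col15a1, when every gene with at least 1 read in any library was kept (1.11%). Leaving out control 3 gave 2, Col15a1 and Col12a1, beside 5.37% of all genes tested. The calls of Col12a1 are description only, since it passed the filter on low counts through the controls alone. Leaving out any other library gave 0, where the share of all genes called was 0.0768% without control 1, 0.256% without Axin1 library 1, 0.14% without Axin1 library 3 and 0% without control 2 or Axin1 library 2.

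**Figure D1:**
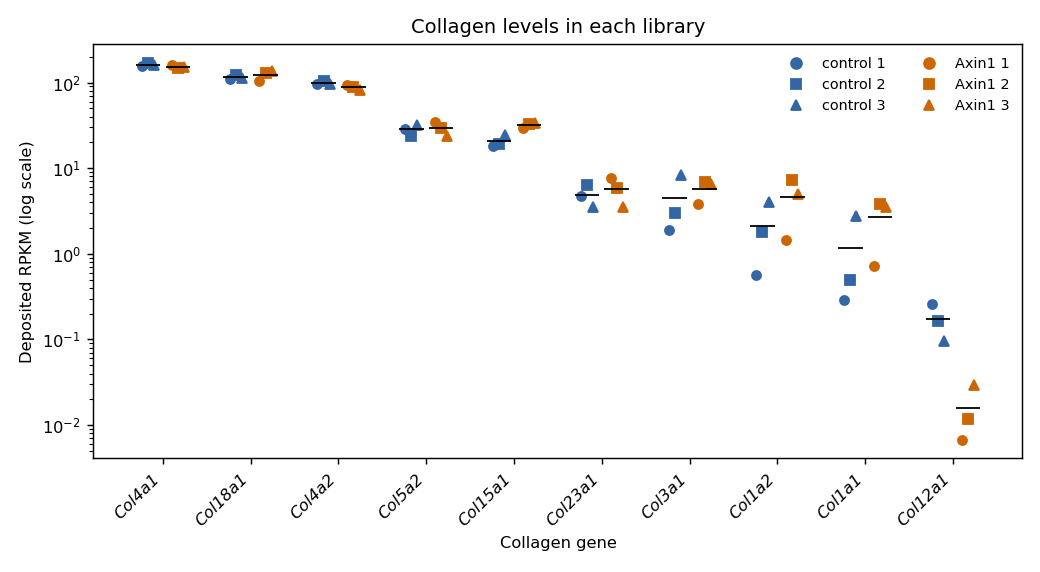
Deposited RPKM on a log axis for the 9 collagen genes with a mean of at least 1 RPKM and for Col12a1, with 1 point per library (blue controls, orange Axin1 libraries, shapes for replicate numbers) and a black bar at each group mean. Col4a1, Col18a1 and Col4a2 lie closely together between 81.7 and 170 RPKM in all libraries, while Col1a1 ranges from 0.287 to 3.78 RPKM.

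Col4a1 was the highest collagen gene in every library, at 154, 170 and 159 RPKM in controls 1, 2 and 3 and at 161, 148 and 150 RPKM in Axin1 libraries 1, 2 and 3. The groups overlapped, and the highest library was only 1.15 times the lowest. By RPKM it ranked between 648 and 748 among all 22958 entries of a library. Its log2 fold change was -0.09 (SE 0.09, 95% confidence interval -0.30 to 0.12, edgeR adjusted p 0.677), an interval from 0.811 to 1.09 times the control level.

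Col4a2 had 97, 104 and 97.2 RPKM in the controls and 94.7, 87.7 and 81.7 RPKM in the Axin1 libraries. All 3 Axin1 libraries lay under all 3 controls, by a small margin. The log2 fold change was -0.19 (SE 0.10, 95% confidence interval -0.42 to 0.04, edgeR adjusted p 0.372). On the linear scale the interval ran from 0.749 to 1.02 times the control level. The first exons of Col4a1 and Col4a2 overlap by 22 bases on opposite strands in GENCODE M21, which is 0.333% and 0.341% of their exon bases. Col4a2 also overlaps Gm15419 on the opposite strand by 43 bases, or 0.667% of its exon bases. No source used here gives the strand setting of the counting.

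The ratio of Col4a1 to Col4a2 RPKM was 1.59, 1.63 and 1.64 in controls 1, 2 and 3 and 1.7, 1.69 and 1.84 in Axin1 libraries 1, 2 and 3. Each Axin1 library had a higher ratio than each control. The log2 ratio was higher by 0.10 in the Axin1 libraries (SD 0.03 in controls and 0.07 in Axin1 libraries), with an exact two-sided permutation p of 0.1, the smallest that 3 against 3 libraries can give. Without Axin1 library 3, which had the highest ratio, the difference was 0.06.

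Of the other type IV chains, which form the specialised networks of kidney, lung and other epithelia, only Col4a5 had enough reads to be tested. Col4a5 stood at 0.481, 0.836 and 0.644 RPKM in the controls and at 0.743, 0.805 and 0.682 RPKM in the Axin1 libraries, with overlapping groups (log2 0.16, edgeR adjusted p 0.843). Col4a3 had 1, 16 and 25 reads in the controls and 6, 10 and 5 in the Axin1 libraries. Col4a4 and Col4a6 had at most 5 reads in any library. Col4a3 with Col4a4, and Col4a5 with Col4a6, are neighbouring pairs like Col4a1 with Col4a2, so the 6 type IV genes form 3 neighbour pairs of which 1 was highly expressed.

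Col18a1, which encodes the precursor of endostatin, had 110, 121 and 114 RPKM in the controls and 105, 128 and 136 RPKM in the Axin1 libraries. The groups overlapped, with both the lowest and the highest value among the Axin1 libraries. Its log2 fold change was 0.09 (SE 0.12, 95% confidence interval -0.18 to 0.35, edgeR adjusted p 0.756). The deposited entry joins the RefSeq transcripts NM_009929 and NM_001109991, so transcripts from different starts cannot be told apart.

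Col15a1, the closest relative of Col18a1, had 18, 19.2 and 24.3 RPKM in controls 1, 2 and 3 and 29.2, 33 and 34.1 RPKM in Axin1 libraries 1, 2 and 3. Every Axin1 library lay above every control, and control 3 was the highest control. The group means were 20.5 ± 3.33 and 32.1 ± 2.54 RPKM (SD, n = 3 each). The log2 fold change was 0.63 (SE 0.13), its 95% confidence interval ran from 0.33 to 0.93, and the edgeR unadjusted p was 0.00116 and the edgeR adjusted p 0.0684. The DESeq2 adjusted p was 0.00322. Leaving out control 3 gave an edgeR adjusted p of 0.0122, and over the 14 alternatives it ranged from 0.00113 to 0.264, with 4 of them under 0.05.

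Of the 12 endothelial markers, 3 had their lowest values in controls 1 and 2, and these were picked after their values were seen. Cdh5, the VE-cadherin gene, had 432, 502 and 846 CPM in controls 1, 2 and 3 and 981, 945 and 924 CPM in Axin1 libraries 1, 2 and 3 (edgeR adjusted p 0.218, DESeq2 adjusted p 0.0406). Cldn5, the main claudin gene of brain endothelium, had 44, 48.2 and 196 CPM and then 186, 275 and 242 CPM. Eng, an endothelial TGF-beta co-receptor gene, had 183, 132 and 324 CPM and then 317, 324 and 311 CPM. Controls 1 and 2 lay below the other 4 libraries for these 3 genes, and Col15a1 was likewise lowest in them. The other 9 markers were ordered otherwise, among them Esam, a junction protein gene, with 1321, 1206 and 1227 CPM in controls 1, 2 and 3 and 1083, 1026 and 925 CPM in Axin1 libraries 1, 2 and 3. The part of these differences between controls in the value of Col15a1 was not tested.

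Relative to each other, Col18a1 was 6.11, 6.28 and 4.67 times Col15a1 in the controls and 3.6, 3.87 and 4 times in the Axin1 libraries, on the RPKM scale. The ratio in each Axin1 library was lower than in each control, and this ratio was not tested.

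**Figure D2:**
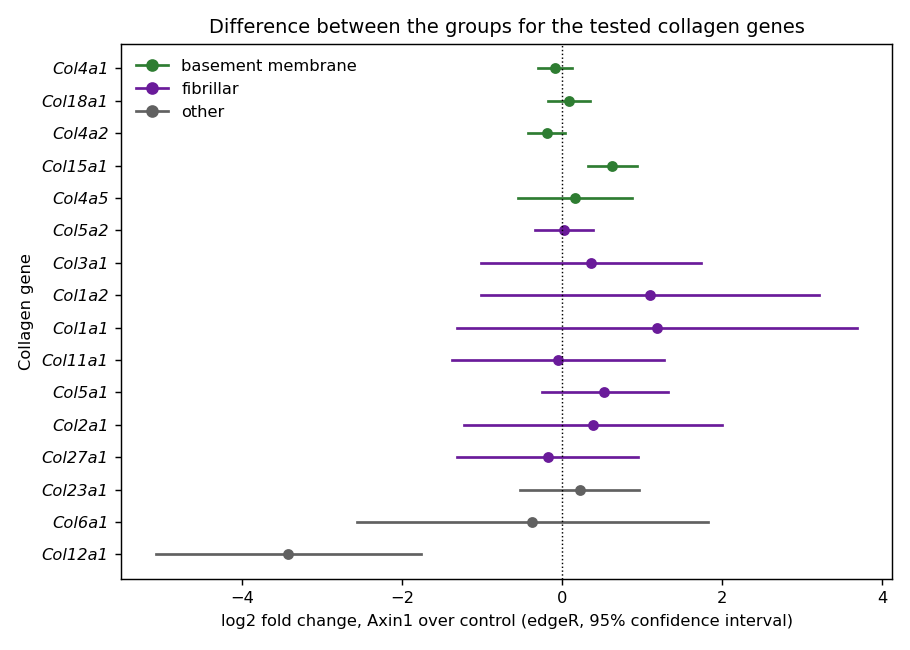
Points give the edgeR log2 fold change of Axin1 over control libraries for the 16 tested collagen genes and lines its 95% confidence interval, with colours for the collagen class. Intervals are narrow around 0 for Col4a1, Col18a1, Col4a2 and Col5a2 and wide for Col1a1 and Col1a2. They exclude 0 for Col15a1 and Col12a1, neither of which passed after adjustment over all genes in this fit of 6 libraries. The interval of Col12a1 is description only, since this gene passed the filter on low counts through the controls alone.

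Among fibrillar collagens Col5a2 stood apart in level. Col5a2, which encodes a chain of the type V trimer that regulates fibril diameter, had 28.7, 24 and 32.2 RPKM in the controls and 34.3, 29.1 and 23.9 RPKM in the Axin1 libraries. Both groups covered nearly the same range, and the log2 fold change was 0.02 (SE 0.16, 95% confidence interval -0.34 to 0.39, edgeR adjusted p 0.96). Its usual partner chains were near the bottom of the scale. Col5a1, whose chain is part of the known type V trimers, lay between 0.307 and 0.62 RPKM, and Col5a3 had at most 1 read in any library. The RPKM of Col5a2 was thus 52 to 86.6 times that of Col5a1 in the same library. For Col5a1 the log2 fold change was 0.53 (95% confidence interval -0.25 to 1.32, edgeR adjusted p 0.477).

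Col3a1, Col1a2 and Col1a1 encode the chains of the interstitial fibrils of types III and I, and they varied widely between libraries of the same group. Col3a1 had 1.9, 3.03 and 8.37 RPKM in controls 1, 2 and 3 and 3.82, 6.81 and 6.5 RPKM in Axin1 libraries 1, 2 and 3. Col1a2 had 0.558, 1.78 and 4.05 RPKM in the controls and 1.45, 7.23 and 5.06 RPKM in the Axin1 libraries. Col1a1 had 0.287, 0.501 and 2.76 RPKM in the controls and 0.722, 3.78 and 3.56 RPKM in the Axin1 libraries. All 3 genes were highest in control 3 within the controls and lowest in Axin1 library 1 within the Axin1 libraries, and the groups overlapped. Their log2 fold changes were 0.36, 1.10 and 1.19, with edgeR adjusted p values of 0.797, 0.572 and 0.614. The interval for Col1a1 ran from 0.402 to 12.9 times the control level. In the 4 libraries that share title numbers, blocked by that number, all 3 genes passed edgeR's test and were higher in the Axin1 libraries. There the log2 fold change was 1.06 for Col3a1, 1.72 for Col1a2 and 2.21 for Col1a1, with edgeR adjusted p values of 0.00198, 2.76e-04 and 0.00292. With only 4 libraries for a block term and a group term, little spread was left to measure in that fit. When 1 library at a time was left out without a block, none of the 3 passed, and the log2 fold change ranged from 0.0032 to 1.18 for Col3a1, from 0.62 to 1.93 for Col1a2 and from 0.73 to 2.72 for Col1a1, each highest without control 3.

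Several markers of pericytes and mesenchyme also varied between libraries of the same group. Lum, a fibroblast proteoglycan gene that binds collagen fibrils, had 3.06, 5.9 and 19.6 CPM in controls 1, 2 and 3 and 4.79, 23.3 and 16.2 CPM in Axin1 libraries 1, 2 and 3. Pdgfrb, the PDGF receptor gene of pericytes, lay between 8.75 CPM in control 1 and 26.5 CPM in control 3, with the Axin1 libraries at 12.6, 23.1 and 18.9 CPM. Abcc9 and Kcnj8, channel genes of brain pericytes, were ordered otherwise, with the highest value in Axin1 library 1 for Abcc9, and all Axin1 libraries below all controls for Kcnj8. Lum, Pdgfrb, Abcc9 and Kcnj8 were chosen here after their values were seen. Of the 16 markers 14 were tested and 0 passed edgeR's test, beside 0.845% of all tested genes. Their summed level was 73.6 to 126 CPM in the controls and 116 to 146 CPM in the Axin1 libraries, and Des and Twist1 had 0 reads in at least 1 library. The part of such cells in the values of Col1a1, Col1a2 and Col3a1 was not tested. In sorted bulk samples, a different number of cells of a type and a different amount of RNA per cell cannot be told apart.

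**Figure D3:**
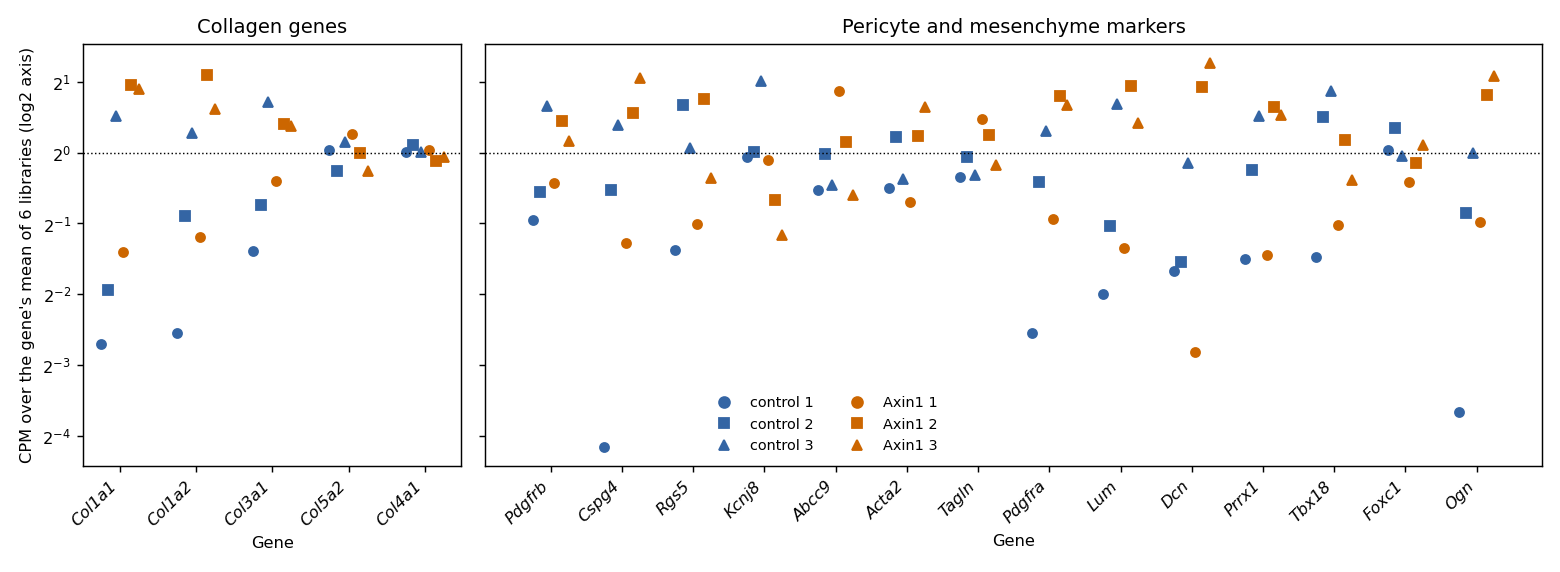
CPM of each gene divided by its mean over the 6 libraries, on a log2 axis, for 5 collagen genes (left) and the 14 tested pericyte and mesenchyme markers (right), with 1 point per library. Col1a1, Col1a2 and Col3a1 are spread widely and Col5a2 and Col4a1 lie close to 1, while markers such as Lum and Pdgfrb vary between libraries of both groups.

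Col3a1 and Col5a2 are neighbours in the genome, with Col5a2 the higher of the pair in every library. Col5a2 was 3.67 to 15.2 times Col3a1 in RPKM, depending on the library. The remaining tested fibrillar genes were low and overlapped between groups. Col11a1, the type XI chain gene, lay between 0.188 and 0.903 RPKM, Col2a1, the main cartilage collagen gene, between 0.116 and 0.667 RPKM, and Col27a1 between 0.149 and 0.398 RPKM. Their log2 fold changes were -0.05, 0.39 and -0.18, with edgeR adjusted p values of 0.976, 0.829 and 0.896. Col11a2 had at most 3 reads in any library and Col24a1 at most 1.

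Among the 24 other collagens only Col23a1 reached a mean of 1 RPKM. Col23a1, a transmembrane collagen gene, had 4.76, 6.3 and 3.49 RPKM in the controls and 7.72, 5.84 and 3.54 RPKM in the Axin1 libraries, with groups that overlapped (log2 0.22, SE 0.32, 95% confidence interval -0.52 to 0.96, edgeR adjusted p 0.778). The other transmembrane members, Col13a1, Col17a1 and Col25a1, had at most 9 reads in any library.

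Col12a1, which encodes a fibril-associated collagen, had the largest fold change of the tested collagen genes at a very low level, and is described here because of its values. It had 36, 25 and 12 reads in controls 1, 2 and 3 and 1, 2 and 4 reads in Axin1 libraries 1, 2 and 3. Each control lay above each Axin1 library. The log2 fold change was -3.42 (SE 0.73), its 95% confidence interval ran from -5.07 to -1.76, and the edgeR unadjusted p was 0.00125 and the edgeR adjusted p 0.0719. It rests on 73 reads against 7. Col12a1 passed the filter on low counts through the controls alone, where it is high, so its p values and interval are given as description only. Without control 3, the lowest control, the edgeR adjusted p was 0.0268, and it lay between 0.00301 and 0.246 over the alternatives that gave one.

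Type VI collagen, the beaded filament of mesenchymal matrix, was close to the limit of detection. Col6a1 had 2, 22 and 16 reads in the controls and 2, 27 and 6 in the Axin1 libraries (log2 -0.37, edgeR adjusted p 0.887). Col6a2, just under the filter on low counts, had 7, 11 and 17 reads in the controls and 4, 9 and 6 in the Axin1 libraries. Col6a1, just inside it, and Col6a2 are neighbours on 1 strand. Col6a3 had between 0 and 16 reads, Col6a5 and Col6a6 had at most 2 and 1, and Col6a4 had 0 in all 6 libraries, which allows up to 3 reads per library, or 0.211 to 0.278 CPM before TMM scaling.

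Of the 27 collagen genes that were not tested, 21 had 10 reads or fewer in every library, and together the 27 held 464 reads against 198398 for the 16 tested. Col8a1 and Col8a2, the short-chain collagens of vessel walls and cornea, had 2 to 15 and 0 to 12 reads. Col8a1 had 4, 5 and 2 reads in the controls and 6, 10 and 15 in the Axin1 libraries. Col9a3 had 0, 0 and 1 and then 2, 5 and 5 reads. Both genes were chosen after their values were seen, because their groups did not overlap, at counts too low for the test. Among all tested genes 23.8% had groups that did not overlap, and the share among genes with too few reads was not computed. Col28a1 had 0 to 5 reads. The fibril-associated genes Col9a1, Col9a2, Col14a1, Col16a1, Col19a1, Col20a1 and Col22a1 and the anchoring fibril gene Col7a1 stood at 0 to 17 reads. Col19a1 had 8 reads in Axin1 library 1 and 0 in the other libraries. Col10a1, the gene of hypertrophic cartilage, had 1 read in control 1, 1 in Axin1 library 3 and 0 elsewhere.

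Genes that modify, fold, export, process and cross-link collagen were mostly expressed, and none passed the test with all 6 libraries. Of 39 such genes 31 were tested, and 0 had an edgeR adjusted p under 0.05, beside 0.845% of all tested genes. At an unadjusted p under 0.05 there were 12 of 31, beside 17.2% of all tested genes, and DESeq2 called 3, beside 5.69%. Groups did not overlap for 11, beside 23.8% of all tested genes, with 6 higher (11.3%) and 5 lower (12.4%) in the Axin1 libraries. The list's median log2 fold change was 0.19, beside 0.02 over all tested genes.

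Serpinh1, the collagen-specific chaperone HSP47, had 2360, 1772 and 2671 CPM in the controls and 3349, 2537 and 2170 CPM in the Axin1 libraries. The groups overlapped (log2 0.24, SE 0.20, edgeR adjusted p 0.586). P4hb, the shared subunit of the prolyl hydroxylases that stabilise the triple helix, had 871, 771 and 1133 CPM in the controls and 1228, 1156 and 1110 CPM in the Axin1 libraries (log2 0.33, edgeR adjusted p 0.286). Control 3 lay within the range of the Axin1 libraries for P4hb.

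The 5 genes whose Axin1 libraries all lay lower were among the modifying enzymes and their partners. These genes as a set were not lower, since 10 of the 15 had a positive and 5 a negative log2 fold change, with a median of 0.07. Plod3, of the same set, had a log2 fold change of 0.50 with overlapping groups (edgeR adjusted p 0.233), and 16.1% of its exon bases overlap a gene on the opposite strand. Plod1, a lysyl hydroxylase gene, had 408, 485 and 545 CPM in the controls and 306, 330 and 374 CPM in the Axin1 libraries (log2 -0.51, SE 0.13, edgeR adjusted p 0.115, DESeq2 adjusted p 0.02). Ppib, a prolyl isomerase of the endoplasmic reticulum that acts on procollagen, averaged 258 ± 21.4 CPM over the controls against 192 ± 6.43 CPM over the Axin1 libraries (SD, n = 3 each, log2 -0.42, edgeR adjusted p 0.105, DESeq2 adjusted p 0.0245). In GENCODE M21 57.6% of the exon bases of Ppib overlap Snx22 on the opposite strand, so its count is uncertain. Crtap, a partner of prolyl 3-hydroxylase, and Glt25d1, a collagen galactosyltransferase gene, had log2 fold changes of -0.72 and -0.48 (edgeR adjusted p 0.179 and 0.147). The fifth was Leprel2, a prolyl 3-hydroxylase gene, by a narrow margin (log2 -0.15, edgeR adjusted p 0.81).

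Among the 6 with all Axin1 libraries higher were 3 genes of folding and export and 3 of cross-linking. Fkbp10, a procollagen chaperone of the endoplasmic reticulum, had 316, 231 and 330 CPM in the controls and 372, 401 and 374 CPM in the Axin1 libraries (log2 0.39, SE 0.14, edgeR adjusted p 0.219). Sec23a and Sec24d, coat proteins of the vesicles that carry procollagen, had log2 fold changes of 0.25 and 0.42 (edgeR adjusted p 0.256 and 0.228). Loxl2, a lysyl oxidase family gene that cross-links type IV collagen, averaged 38.9 ± 5.91 CPM over the controls against 63.7 ± 16.6 CPM over the Axin1 libraries (SD, n = 3 each, log2 0.71, SE 0.20, edgeR adjusted p 0.138, DESeq2 adjusted p 0.0323). Loxl3 and the transglutaminase gene Tgm2 had log2 values of 0.69 and 0.36 (edgeR adjusted p 0.187 and 0.216), and 13.1% and 17.6% of their exon bases overlap a gene on the opposite strand. Pxdn, the peroxidase that forms the sulfilimine bonds of type IV collagen, was expressed at 212 to 266 CPM in all libraries (log2 0.11, edgeR adjusted p 0.73). Apart from Serpinh1, P4hb, Plod1 and Fkbp10, the genes named from this list were chosen after their values were seen.

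Of 8 genes of propeptide processing 4 had enough reads to be tested. Among these, Bmp1 lay between 41.7 and 64.5 CPM, Pcolce between 11.3 and 19.6 CPM and Tll1 between 7.26 and 12.3 CPM. Several other genes for enzymes of fibrillar collagen were at or near 0. Adamts2, the type I procollagen N-proteinase gene, was at 0 reads in 5 of the 6 libraries. Lox had 0 reads in control 1 and 3 to 17 in the other libraries, and Loxl1 had 0 or 1 read in every library. Mia3, which encodes a cargo receptor for procollagen export and not an enzyme, is listed at 0 reads in all libraries. Whether this reflects its expression or the way the entry was counted was not tested.

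**Figure D4:**
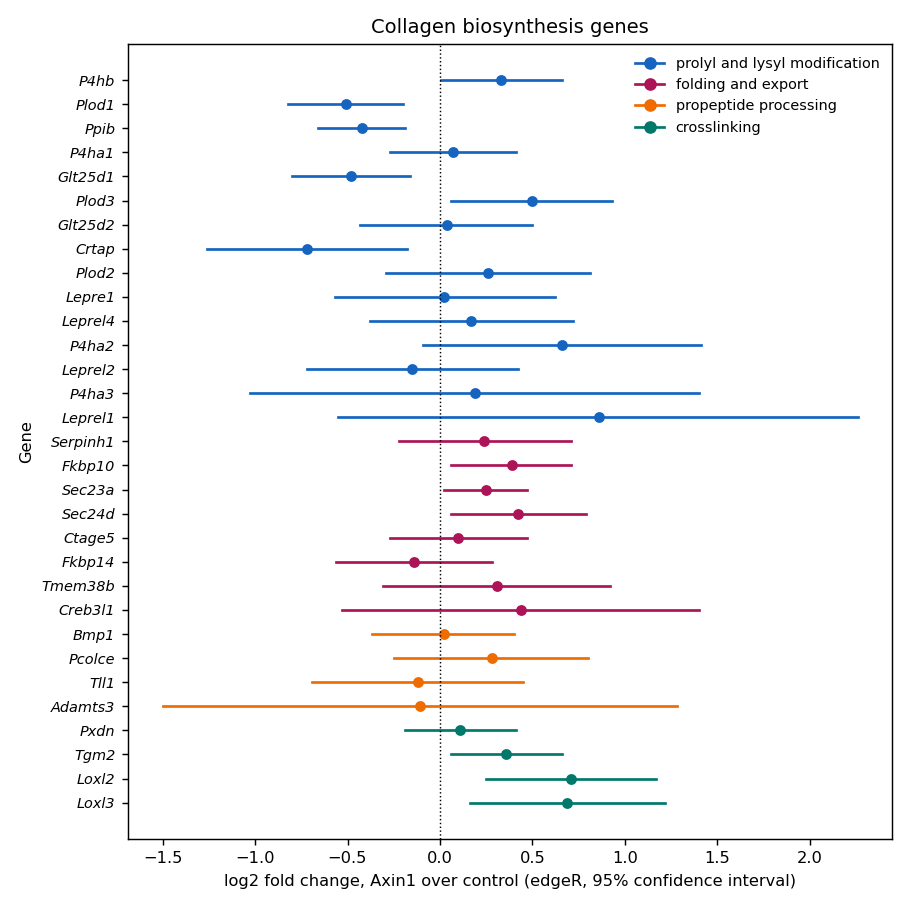
Points give the edgeR log2 fold change of Axin1 over control libraries for the 31 tested genes of collagen biosynthesis, with lines for the 95% confidence interval and colours for the step they serve. Plod1, Ppib, Glt25d1 and Crtap lie below 0 and Loxl2, Loxl3 and Fkbp10 above it, and none of the 31 passed in the fit of all 6 libraries.

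No collagen receptor gene passed the test, and several varied widely between libraries. Of 11 receptor genes 10 were tested and 0 passed edgeR's test (0.845% of all tested genes), also 0 at an unadjusted p under 0.05 (17.2%) and 0 by DESeq2 (5.69%), with a median log2 fold change of -0.08. Itgb1, the beta chain of the collagen-binding integrins, had 403, 467 and 389 CPM in the controls and 428, 464 and 406 CPM in the Axin1 libraries (edgeR adjusted p 0.881, log2 0.04 with an interval of -0.21 to 0.30). Its partner chain genes Itga1 and Itga2 had log2 fold changes of -0.06 and 0.17, and Gpr56, an adhesion receptor for type III collagen, -0.22. Gpr56 ranged from 84.7 to 178 CPM, both ends of which were first replicates. The range was wider for Lair1, an inhibitory collagen receptor of leukocytes, between 3.99 and 32.4 CPM (edgeR adjusted p 0.512 at a log2 value of 1.15), and for Gp6, the platelet collagen receptor gene, from 7.51 to 30.1 CPM. Ddr1, a collagen-binding tyrosine kinase gene, lay between 0 and 4.5 CPM and Itga11 between 0.344 and 3.59 CPM. Lair1, Gp6, Ddr1 and Itga11 were chosen after their values were seen.

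Of 11 genes of collagen breakdown 8 were tested and 0 passed edgeR's test (0.845% of all tested genes). At an unadjusted p under 0.05 there were 2 (17.2%), both also called by DESeq2 (5.69%). The list's median log2 fold change was 0.80, beside 0.02 over all tested genes, with 6 positive and 2 negative values. Mmp2, which encodes a gelatinase that cleaves type IV collagen, had 79.5, 71 and 174 CPM in controls 1, 2 and 3 and 323, 348 and 227 CPM in Axin1 libraries 1, 2 and 3. All Axin1 libraries lay above all controls, with control 3 nearest to them. Its log2 fold change was 1.47 (SE 0.39, 95% confidence interval 0.53 to 2.42, edgeR adjusted p 0.15), and DESeq2 gave an adjusted p of 9.63e-05. Mmp15, a membrane-bound metalloproteinase gene, averaged 43.3 ± 5.67 CPM over the controls against 64.9 ± 10.6 CPM over the Axin1 libraries (SD, n = 3 each, log2 0.58, edgeR adjusted p 0.126, DESeq2 adjusted p 0.0477). For Mmp14, the activator of the Mmp2 protein, the log2 value was -0.03 (edgeR adjusted p 0.932). Mmp15 and Mmp14 were chosen after their values were seen.

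The lysosomal protease genes Ctsb and Ctss were highest in Axin1 library 3. Ctsb had 585, 935 and 654 CPM in the controls and 627, 1184 and 2063 CPM in the Axin1 libraries, and Ctss had 67.6, 122 and 54.1 and then 30.9, 156 and 285 CPM (edgeR adjusted p 0.422 and 0.625). Ctsl had 424, 393 and 333 CPM in the controls and 319, 314 and 436 CPM in the Axin1 libraries, with overlapping groups (edgeR adjusted p 0.777). Exons of Ctsb and Ctsl overlap a gene on the opposite strand over 16.3% and 28.2% of their bases. The summed level of 10 macrophage markers was 425, 788 and 403 CPM in the controls and 220, 1155 and 2436 CPM in the Axin1 libraries. None of the 10 passed edgeR's test (0.845% of all tested genes), with 0 at an unadjusted p under 0.05 (17.2%) and 0 by DESeq2 (5.69%). None of the 10 was at 0 in any library, and their part in the values of Ctsb and Ctss was not tested.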

How the data were processed

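RNA was measured in 6 libraries of CD31-sorted brain endothelial cells, 3 control and 3 Axin1, grouped by their descriptions. Polyadenylated RNA was purified with a column kit and turned into cDNA by SMARTer chemistry for small inputs, per the labels' protocols. The authors deposited per library a read count and an RPKM value for each of 22958 RefSeq entries, per the file headers. Bowtie and mm9 are named in the submitters' processing notes, with no versions. No source used here gives the counting program, its strand setting or its treatment of multiply mapped reads.

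Counts were tested with edgeR 4.0.16 (quasi-likelihood, robust, TMM, R 4.3.3), with filterByExpr defaults (minimum count 10, minimum total 15), no covariates and adjustment over 12661 genes. Normalisation factors were 0.975 to 1.02. The standard error is the log2 fold change over the square root of F. Alternatives used DESeq2 1.42.0, limma 3.58.1 on log2(RPKM + 1) or log2(RPKM + 0.1), other scaling and filters, replicate blocks, and leaving out each library. The ratio of reads to RPKM followed 1 factor per library within 1% for at least 82.2% of entries. For Col2a1 and Col4a5 it departed by up to 6.67% and 3.85%. The edgeR model was tested on simulated counts with known changes, drawn with the same spread for every gene. The collagen genes differed in spread, so that simulation does not measure how well small differences in them are found. Counting limits for 0 reads cover counting error only.

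The collagen genes were those whose symbol fitted the pattern. Genes described with values were Col4a1, Col4a2, Col18a1 and Col15a1, those past the threshold, those with a mean of at least 1 RPKM, those next to the filter on low counts, and up to 4 per pathway list with the highest mean CPM. Others are said to be chosen after their values were seen, or are given as low genes. Members and lists were chosen with earlier results of these data known. No coordinates of mm9 are used, promoter windows are of GRCm38.p6.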

Additional observations from a re-analysis of the deposited data

How the results depend on the processing

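The count of collagen genes called was 0 with all libraries, 1 by DESeq2, 1 with genes of at least 1 read in any library kept, and 0 to 2 when 1 library was left out (2 without control 3, Col15a1 and Col12a1). For all genes it was 107 (0.845%), and 720 (5.69%), 197 (1.11%) and 0 to 695 (0% to 5.37%) in the same settings. That number was 0 without control 2 or Axin1 library 2, 10 without control 1, 18 without Axin1 library 3, 33 without Axin1 library 1 and 695 without control 3. Biosynthesis genes numbered 0, against 3 by DESeq2 and 0 to 3 when 1 library was left out, and breakdown genes 0, against 2 and 0 to 1, with the highest counts without control 3. Receptor genes stayed at 0 in all of these settings. The log2 difference of the Col4a1 to Col4a2 ratio was 0.06 to 0.13 when 1 library was left out.

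With the description number as a replicate block, 0 collagen genes and 105 genes in all were called, and the ratio's difference was 0.10 (exact sign-flip p 0.25, the smallest possible). The title number was also used as a replicate block in the 4 libraries that share one, which leaves out control 3 and Axin1 library 3. In that fit 1500 genes in all were called, or 11.9% of those tested. Among them were 5 of 16 collagen genes (Col15a1, Col12a1, Col1a1, Col1a2 and Col3a1), 9 of 32 biosynthesis genes and 3 of 9 breakdown genes. Col12a1 passed the filter on low counts through the controls alone, so its calls here and without control 3 are description only. Same-numbered libraries had deviations that correlated across genes with r of 0.234, 0.152 and -0.0229 for numbers 1, 2 and 3. Control 2 correlated best with Axin1 library 3 (0.175). The number was therefore not taken to pair all 6 libraries. The first 2 pairs are also those that share a title number, and their crossed pairs had r of -0.249 and -0.215. Deviations from a group mean sum to 0 for each gene, so the r values depend on each other. The negative values of the crossed pairs are therefore no separate evidence on pairing. Whether the title number marks a shared litter or day is not in the labels and was not tested.

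Over 210 pairs of a collagen gene and an alternative, the sign reversed in 15, for 8 genes, none of which passed in any setting. When 1 library was left out, log2 fold changes were 0.32 at the highest and -0.46 at the lowest for Col27a1, -0.00029 to 0.18 for Col18a1, -1.70 to 0.11 for Col6a1, -0.07 to 0.46 for Col23a1, -0.28 to 1.26 for Col2a1, -0.02 to 0.36 for Col4a5, -0.12 to 0.14 for Col5a2 and -0.44 to 0.77 for Col11a1. In the 4 libraries Col18a1 had -0.03, Col6a1 0.08 and Col11a1 0.74, and with the description number as a block Col11a1 had 0.12. Col4a1, Col4a2, Col15a1, Col12a1, Col5a1, Col1a1, Col1a2 and Col3a1 kept their sign in every alternative run, though not their size. When 1 library was left out, log2 fold changes were 0.0032 to 1.18 for Col3a1, 0.62 to 1.93 for Col1a2, 0.73 to 2.72 for Col1a1, 0.37 to 0.73 for Col5a1, -4.10 to -2.98 for Col12a1, 0.56 to 0.75 for Col15a1, -0.14 to -0.06 for Col4a1 and -0.25 to -0.15 for Col4a2. Depth limits what can be said of the genes with few reads, such as Col6a1. The cause of these changes was not tested.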
